A study of Mus musculus with 8 samples.

Results

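Ighm and 7 further genes of the B cell receptor complex and its coreceptors (Cd79a, Cd79b, Fcer2a, Cd22, Blk, Pax5 and Cr2) were followed in sorted CD4+ T cells. The 8 genes were taken by name, and every transcript cluster (the array's unit of measurement, a group of probes) to which the platform annotation gives one of these symbols alone was read, which gave 14 clusters of the 41034 on the array. Ighm had 7 of them and each other gene had 1. The question was how CD45RBlow cells stood against CD45RBhigh cells for each gene in each genotype and replicate number, and whether Ighm followed the rest.

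The B cell receptor is a membrane immunoglobulin held by the signalling chains CD79A and CD79B. On a naive B cell that immunoglobulin has a mu heavy chain, whose constant region is encoded by Ighm. CD22 restrains the receptor, the complement receptor CD21 (Cr2) amplifies it, CD23 (Fcer2a) is the low-affinity IgE receptor of mature B cells, BLK is a Src-family kinase of the receptor, and PAX5 is the factor that holds B cell identity. CD4+ T cells do not build this receptor, although transcripts of an unrearranged mu constant region have been described in mouse T-lineage cells.

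The 4 groups were CCR2-/- CD45RBlow, CCR2-/- CD45RBhigh, wild-type CD45RBlow and wild-type CD45RBhigh, with 2 arrays each, numbered replicate 1 and replicate 2. All cells were CD4+CD25- T cells sorted from spleens of C57BL/6 mice aged 6 to 8 weeks and put on plates coated with antibodies to CD3 and CD28, so all 4 groups were activated and no resting cells were measured. The sample protocols give 48 h of activation and the series design 2 h. CD45RB marks naive CD4+ T cells when high and is reduced after antigen experience, and CCR2 is the receptor for the chemokine CCL2. No label tells whether an array stands for 1 mouse or a pool, or what the replicate number marks. The p-values measure the spread between these samples, and the 2 arrays of each group differed in sex-linked transcripts (given below).

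The T cell markers Cd4 (11.5 to 11.7, log2) and Cd3e (12.3 to 12.8) were high on all 8 arrays, and Ccr2 itself was dim in both genotypes (4.26 to 5.15), so it gave no check of the genotype labels. The 2 replicate numbers differed in sex-linked transcripts, so the 2 arrays of a group were not repeats of 1 sample. Xist, which is made from the inactive X chromosome, had 11.7 to 12.1 on the replicate 2 arrays and 4.45 to 5.02 on the replicate 1 arrays. The Y-linked Kdm5d had 7.58 to 7.78 on the replicate 2 arrays and 8.83 to 9.13 on the replicate 1 arrays. Both CD45RBhigh arrays of replicate 1 stood apart for Cd79a, Cd79b, Fcer2a and Cd22, so results are given by replicate number and also without those 2 arrays. Whether the sex-linked difference had a part in any result was not tested, and it cannot be told apart from the replicate number.

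Ighm was high on every array and lower in CD45RBlow cells than in CD45RBhigh cells in every pair. Its leading cluster, 17284349, had log2 levels of 9.77 and 9.64 in CCR2-/- CD45RBlow cells, against 10.86 and 10.82 in CCR2-/- CD45RBhigh cells (replicate 1 and then replicate 2 in each). It had 9.69 and 9.92 in wild-type CD45RBlow cells, against 10.47 and 10.999 in wild-type CD45RBhigh cells. No CD45RBlow array reached the lowest CD45RBhigh array, which held for 8.13% of the 13508 tested genes. The signal ranked at percentile 90.5 to 96.8 within the arrays. These are bulk samples, in which fewer cells of a type and less RNA per cell cannot be told apart. Averaged over the genotypes, Ighm was 1.03 log2 units lower in CD45RBlow cells (log2 difference -1.03, 95% interval -1.33 to -0.73, 2.04-fold lower, limma adjusted p = 0.0128). Of all 13508 genes tested, 3.03% passed in this comparison and 1.93% passed as lower in CD45RBlow cells. The call was lost without the CD45RBlow array of replicate 1 from either genotype (adjusted p = 0.0568 without the CCR2-/- array and 0.0773 without the wild-type array), at differences of -1.06 and -0.97.

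Within each genotype the fall of Ighm had a similar size and missed the threshold. The log2 difference was -1.13 in CCR2-/- cells (95% interval -1.56 to -0.70, adjusted p = 0.0651), where 0.333% of genes passed, and -0.93 in wild-type cells (-1.36 to -0.50, adjusted p = 0.169), where 0.0888% passed. With the replicate number as a block, the CCR2-/- difference passed (adjusted p = 0.0332, with 1.45% of genes called) and the wild-type difference did not (adjusted p = 0.0786, with 0.77% called). The difference between the genotypes in this gap was -0.20 (95% interval -0.81 to 0.40, adjusted p = 0.9998, with 0% of genes called).

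None of the other 6 Ighm clusters passed. The second brightest, 17284360, had 7.56 and 7.29 in CCR2-/- CD45RBlow cells, against 8.22 and 7.33 in CCR2-/- CD45RBhigh cells. It had 7.53 and 7.24 in wild-type CD45RBlow cells, against 7.62 and 6.72 in wild-type CD45RBhigh cells, so the gap pointed up in the wild-type replicate 2 pair alone among the 4. Its averaged log2 difference was -0.07 (95% interval -0.71 to 0.58). The remaining 5 clusters lay at 3.92 to 5.58, at percentile 6.99 to 57.9 of the arrays, and averaged differences over the 6 ran from -0.37 to 0.01. They were tested in a fit over all 41034 clusters, which called 0.171% of them. In that larger fit the leading cluster missed the threshold as well (adjusted p = 0.0616, 0.042 with the replicate block, which called 0.551%). The mean over all 7 clusters differed by -0.30 between the subsets (adjusted p = 0.307), so the call for Ighm rests on its leading cluster. Which stretch of the gene each cluster reads is not given in the sources used here, and 3 further clusters whose annotation lists Ighm with other genes were left out.

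**Figure D1:**
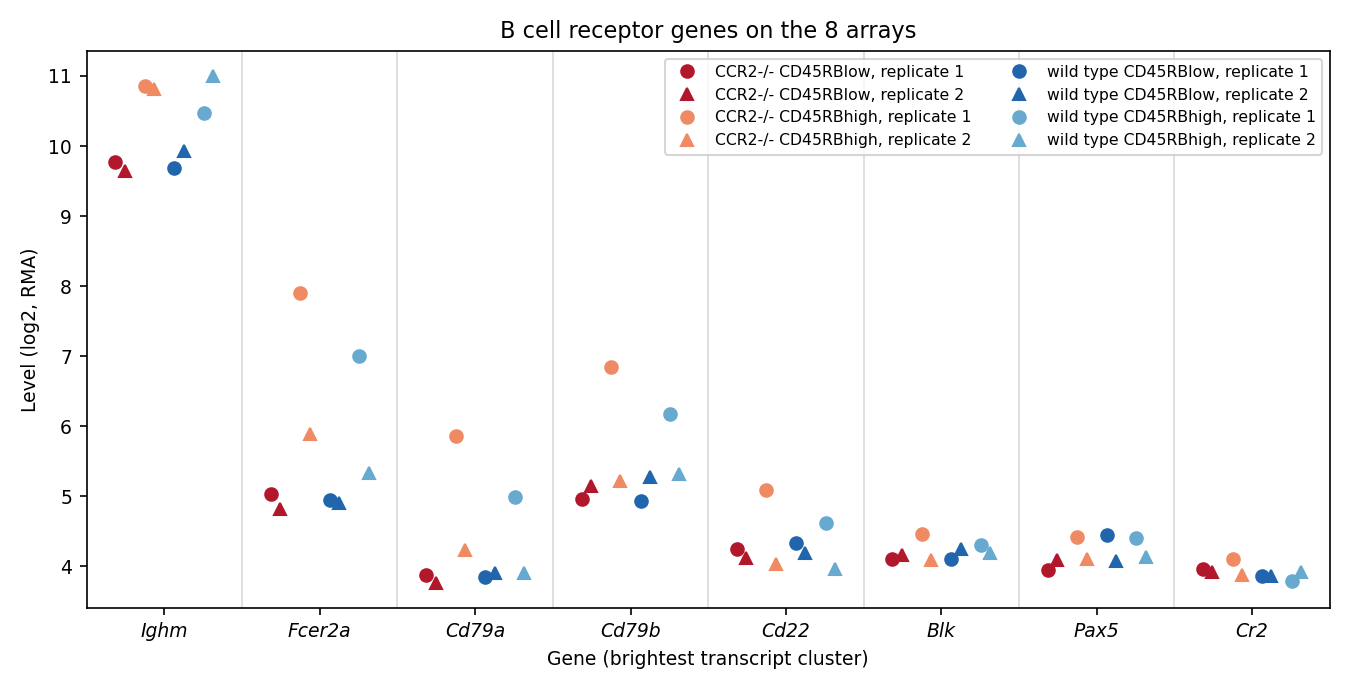
Log2 level (vertical axis) of the 8 genes on the 8 arrays, with 1 point per array, coloured by group and shaped by replicate number; for Ighm the leading cluster is drawn. For Ighm all 4 CD45RBlow points lie under all 4 CD45RBhigh points, whereas for Fcer2a, Cd79a and Cd79b the 2 highest points are the CD45RBhigh arrays of replicate 1.

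Both signalling chains of the receptor were higher on 2 arrays than on the other 6. Cd79a had 3.87 and 3.77 in CCR2-/- CD45RBlow cells, against 5.86 and 4.24 in CCR2-/- CD45RBhigh cells. It had 3.85 and 3.91 in wild-type CD45RBlow cells, against 4.99 and 3.90 in wild-type CD45RBhigh cells. The 2 high values, 5.86 and 4.99, were the CD45RBhigh arrays of replicate 1, and only there did Cd79a pass the filter on low values (the 40th percentile of an array). Cd79b, the partner chain, had 4.96 and 5.14 in CCR2-/- CD45RBlow cells, against 6.85 and 5.22 in CCR2-/- CD45RBhigh cells. Its levels were 4.94 and 5.27 in wild-type CD45RBlow cells and 6.18 and 5.31 in wild-type CD45RBhigh cells. Over both genotypes the CD45RBlow and CD45RBhigh arrays of Cd79a overlapped, as did those of Cd79b. The averaged difference of Cd79b did not pass (-0.81, adjusted p = 0.286). That of Cd79a was -0.90, given with no test because its filter rested on the 2 high arrays.

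The subset gap of the 2 chains was therefore large in replicate 1 and small in replicate 2. For Cd79b it was -0.08 in CCR2-/- and -0.04 in wild-type cells in replicate 2, and -1.89 in CCR2-/- and -1.24 in wild-type cells in replicate 1. For Cd79a it was -0.47 in CCR2-/- and 0.00 in wild-type cells in replicate 2, and -1.99 in CCR2-/- and -1.14 in wild-type cells in replicate 1. The test of that difference, the mean gap in replicate 2 minus the mean gap in replicate 1, gave 1.505 for Cd79b (95% interval 0.88 to 2.13, adjusted p = 0.180) and called 0% of the genes as designed. For Cd79a the filter itself rested on the 2 high arrays, so its difference of 1.33 is given with no test. With array medians set equal Cd79b passed (adjusted p = 0.024), in a setting that called 101 genes. Leaving out 1 array at a time, which leaves its group a single array, gave 1.12 to 1.89 for Cd79b.

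Among the coreceptors, Fcer2a had the widest range over the 8 arrays. It had 5.02 and 4.81 in CCR2-/- CD45RBlow cells, against 7.91 and 5.88 in CCR2-/- CD45RBhigh cells. In wild-type cells it had 4.94 and 4.90 in the CD45RBlow subset, against 6.996 and 5.34 in the CD45RBhigh subset. The groups did not overlap, which held for 8.13% of tested genes in this direction. The CD45RBhigh arrays of replicate 1 were again the highest, by 7.37-fold over CD45RBlow in CCR2-/- cells and 4.15-fold in wild-type cells, and the replicate 2 pairs gave 2.09-fold and 1.35-fold in the same order of genotypes. The averaged difference of -1.61 (95% interval -2.75 to -0.46) missed the threshold (adjusted p = 0.137) and passed with the replicate block (adjusted p = 0.0446, where 5.61% of genes passed). Leaving out the CCR2-/- CD45RBhigh array of replicate 2 leaves that group its high replicate 1 array alone, so larger differences follow from the choice. The averaged differences were then -1.31 for Cd79a, -1.22 for Cd79b and -2.11 for Fcer2a. The gap of Fcer2a by replicate number differed by 1.72 (95% interval 1.28 to 2.16, adjusted p = 0.0925), which passed with array medians set equal (adjusted p = 0.00292). Leaving out 1 array at a time gave 1.53 to 1.90 for this gap difference.

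Cd22, the inhibitory coreceptor, had 4.24 and 4.12 in CCR2-/- CD45RBlow cells, against 5.08 and 4.03 in CCR2-/- CD45RBhigh cells. It had 4.33 and 4.19 in wild-type CD45RBlow cells, against 4.62 and 3.96 in wild-type CD45RBhigh cells. The replicate 1 pairs thus put CD45RBlow cells lower and the replicate 2 pairs put them higher, and the averaged difference was -0.21. Cd22 passed the filter only through the CD45RBhigh arrays of replicate 1, so its difference is given with no test. Cr2, Blk and Pax5 did not pass the filter. Cr2 lay between 3.79 and 4.10 on all arrays. Blk reached its highest level, 4.45, on the CCR2-/- CD45RBhigh array of replicate 1 and lay between 4.08 and 4.31 elsewhere. Pax5 lay between 3.95 and 4.44, and its CD45RBlow and CD45RBhigh arrays overlapped over both genotypes. The averaged differences of these 3 genes were small (Cr2 -0.02, Blk -0.11, Pax5 -0.12).

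Promoter windows of the genes that shared the high values on the CD45RBhigh arrays of replicate 1 are shown, so that the shared pattern can be set beside their sequence. RefSeq windows of GRCm38.p6 were matched for 5 of the 8 genes (Cr2, Pax5, Cd79a, Cd22 and Fcer2a), and Ighm, Cd79b and Blk are only named. Each line gives the 250 bases before the start of transcription, 5′ to 3′ on the strand of the gene, and for Fcer2a the most upstream of its 3 starts. Cd79a lies at chr7:24897247-24897496 (+), Cd22 at chr7:30879029-30879278 (-) and Fcer2a at chr8:3694175-3694424 (-). Capitals mark the only match found to the motifs searched.
Cd79a: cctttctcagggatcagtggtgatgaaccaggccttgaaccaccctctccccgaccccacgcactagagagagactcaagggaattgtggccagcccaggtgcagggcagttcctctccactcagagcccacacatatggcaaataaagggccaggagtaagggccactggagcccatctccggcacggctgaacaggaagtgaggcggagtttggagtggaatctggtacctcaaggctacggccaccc
Cd22: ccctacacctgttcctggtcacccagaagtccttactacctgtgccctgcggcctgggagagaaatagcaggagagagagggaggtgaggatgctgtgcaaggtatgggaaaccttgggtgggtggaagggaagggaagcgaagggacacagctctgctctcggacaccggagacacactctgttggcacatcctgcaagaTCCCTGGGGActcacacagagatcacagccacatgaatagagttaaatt
Fcer2a: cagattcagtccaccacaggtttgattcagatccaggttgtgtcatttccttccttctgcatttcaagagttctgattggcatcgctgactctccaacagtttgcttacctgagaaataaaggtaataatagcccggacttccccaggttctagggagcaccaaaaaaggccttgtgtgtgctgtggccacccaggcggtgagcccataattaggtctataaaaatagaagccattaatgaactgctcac
Both strands of the windows were searched for the immunoglobulin octamer ATGCAAAT, which POU factors bind, and for the EBF-type palindrome, TCCC and GGGA 2 bases apart. The octamer was in 0 of the 7 windows of the 5 genes and in 1.60% of all 32851 windows. The palindrome was in 1, that of Cd22, as TCCCTGGGGA from 49 to 40 bases before the start, and in 0.779% of all windows. With this single match, no overlap of motifs could arise. A match describes letters and not a bound site.

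**Figure D2:**
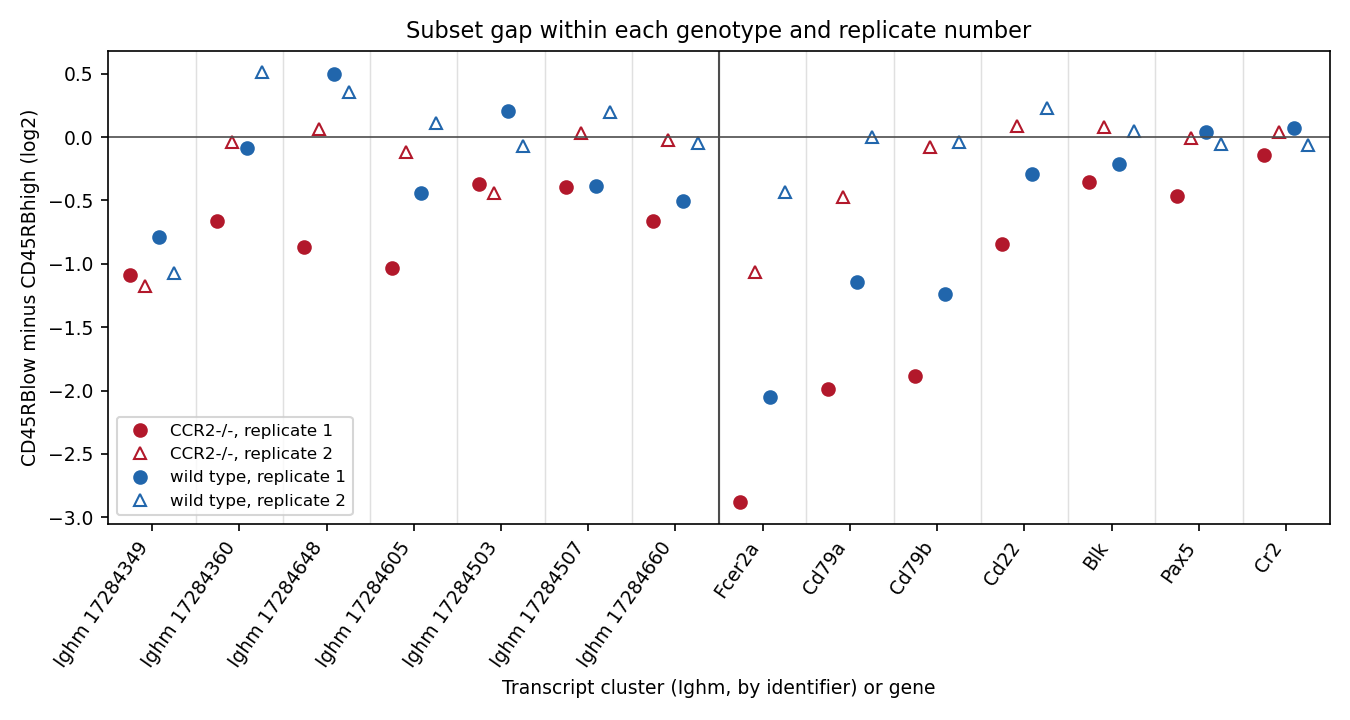
Gap between the subsets, CD45RBlow minus CD45RBhigh in log2 units (vertical axis), for the 7 Ighm clusters (left of the dark line, by identifier) and the 7 other genes, with 1 point for each genotype and replicate number. The leading Ighm cluster has all 4 gaps between -1.18 and -0.78, and Fcer2a, Cd79a and Cd79b have their lowest gaps in replicate 1 (filled points).

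Set side by side, Ighm had gaps of like size in both replicate numbers, and Fcer2a and Cd79b had smaller gaps in replicate 2 than in replicate 1. In replicate 2 the gap of Ighm was -1.18 in CCR2-/- and -1.07 in wild-type cells. Fcer2a came close to it in CCR2-/- cells (-1.07) and had -0.43 in wild-type cells. In replicate 1 Ighm had -1.09 in CCR2-/- and -0.78 in wild-type cells, and Fcer2a had -2.88 and -2.05. The median gap over all 13508 tested genes was between -0.02 and 0.00 in each of the 4 pairs. Ighm, Fcer2a and Cd79b were the members over the filter on all 8 arrays. Among them the gap was more negative in replicate 1 than in replicate 2 in both genotypes for Fcer2a and Cd79b, as it was for 28.3% of tested genes, and not for Ighm. All 4 pairs were below 0 for each of these 3 genes, as for 18.7% of tested genes. For Ighm the gap in replicate 2 minus that in replicate 1 was -0.19 (95% interval -0.76 to 0.38, adjusted p = 0.875). No test set Ighm against the other genes directly.

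The 2 CD45RBhigh arrays of replicate 1 were singled out after their values had been seen, so that smaller differences without them for the genes high on them follow from the choice. Without them Ighm kept a difference of -1.15 (adjusted p = 0.0110, with 2.72% of genes called). Fcer2a had -0.69 and passed (adjusted p = 0.0384). Cd79a had -0.22, Cd79b had -0.19 and Cd22 had 0.22.

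**Figure D3:**
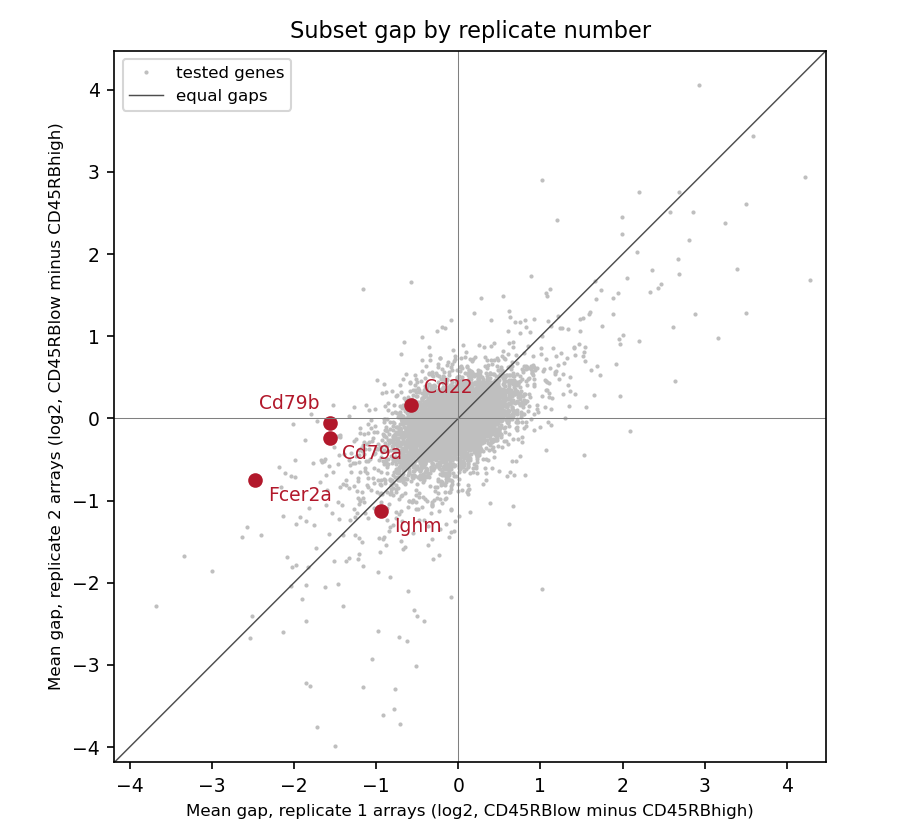
Mean subset gap over both genotypes in replicate 2 (vertical axis) against replicate 1 (horizontal axis), in log2 units of CD45RBlow minus CD45RBhigh, with 1 grey point for each of the 13508 tested genes and the 5 tested members in red. Ighm (-0.94 in replicate 1 and -1.13 in replicate 2) lies near the line of equal gaps, and Fcer2a, Cd79a and Cd79b lie left of it.

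No member passed between CCR2-/- and wild-type cells. Averaged over the subsets, the CCR2-/- minus wild-type log2 difference of the 5 tested members ran from 0.01 for Ighm to 0.36 for Fcer2a, and 0 of the 5 passed at an adjusted or an unadjusted threshold of 0.05, with 0% of all genes called. In CD45RBlow cells the 5 differences ran from -0.10 to 0.00, and in CD45RBhigh cells from 0.11 to 0.73. The interval for Fcer2a in CD45RBhigh cells, -0.89 to 2.35, spans a wide range at 2 arrays a group.

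The genes whose profile over the arrays was most like that of Ighm were ranked, with the other members left out. None of the nearest 8 stood on the lists of B cell genes examined. Those lists held few of the 13508 tested genes, so this absence says little. Among them were 13 surface, 18 signalling, 13 transcription factor, 12 other immunoglobulin, 9 plasma cell and 8 MHC class II genes. Likeness was the root mean square difference of log2 levels after each gene's mean had been removed, over 13508 tested genes. Levels were not scaled, so a gene with a wider or narrower swing than Ighm ranks further off even where it moves the same way. The nearest 8 were Parp8 (0.14), Klf3 (0.15), Niban1 (0.15), Atp10d (0.15), Actn1 (0.16), App (0.16), Parp4 (0.16) and Pdlim5 (0.16). Klf3 encodes a repressor of the Kruppel-like family and Actn1 an actin cross-linker. The heavy chain gene Ighg3, the constant region of IgG3, came ninth by this measure (0.17), and the coactivator Pou2af1, known for its work with octamer factors on immunoglobulin promoters, was at rank 475 (0.37). Cd79b was at rank 6516 (0.55), Cd22 at 8517 (0.58), Cd79a at 9660 (0.60) and Fcer2a at 13229 (0.83), where the median gene had 0.55. Fcer2a spanned 3.09 log2 units over the 8 arrays and Ighm 1.36, so the rank of Fcer2a reflects size as well as shape. The nearest genes to the mean profile of those 4 were Ly86 (0.10), which encodes the MD-1 partner of CD180, then Haao (0.15), Mzb1 (0.15), Txk (0.18) and Nsg2 (0.20), and Ighm was at rank 1293 (0.58). With the mean of all 7 clusters in place of the leading one, 0 of the 8 nearest genes of Ighm stayed among its nearest 8.

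**Figure D4:**
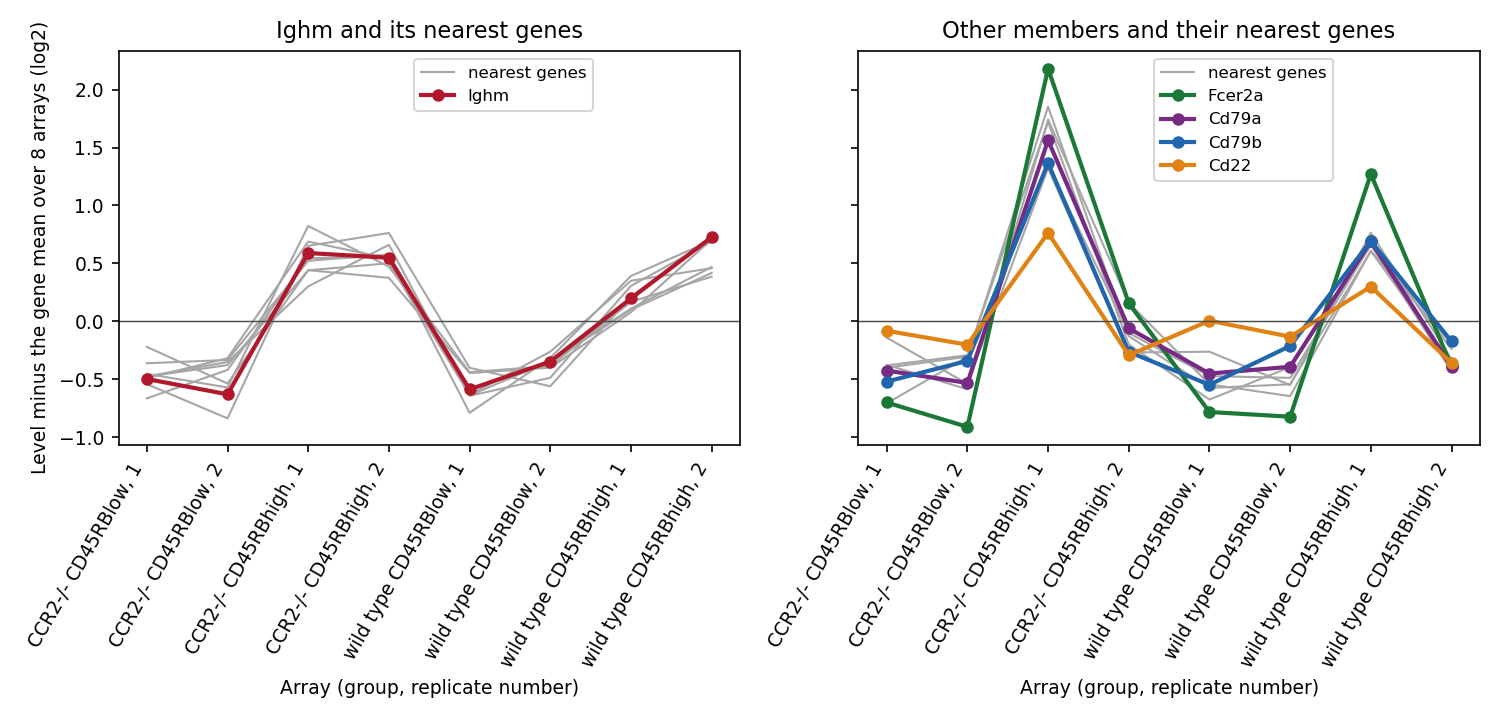
Log2 level minus the gene's mean over the 8 arrays (vertical axis) along the arrays in group order (horizontal axis; lines only join the points). Left, Ighm in red with its 8 nearest genes in grey, all of them high on 4 CD45RBhigh arrays; right, the 4 other tested members with their 5 nearest genes, which peak on the CD45RBhigh arrays of replicate 1.

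Ighg3 was lower in CD45RBlow cells in all 4 pairs. It had 5.06 and 5.12 in CCR2-/- CD45RBlow cells, against 5.95 and 6.21 in CCR2-/- CD45RBhigh cells. It had 5.11 and 5.19 in wild-type CD45RBlow cells, against 5.81 and 6.70 in wild-type CD45RBhigh cells. The groups did not overlap, as for 8.13% of tested genes in this direction, and the averaged difference was -1.05 (95% interval -1.48 to -0.62, adjusted p = 0.0334). In RefSeq's order of constant regions on chromosome 12, Ighd lies between Ighg3 and Ighm. Probes on near-identical constant regions can take up the RNA of more than their own gene, and the probe sequences were not used here. Of 24 other immunoglobulin genes on the array, 12 were tested and Ighg3 alone passed, where 3.03% of all tested genes passed and 1.93% passed as lower. A kappa variable gene, Igkv9-120, followed the other pattern instead, with 4.40 and 5.21 in CCR2-/- CD45RBlow cells, against 6.49 and 5.11 in CCR2-/- CD45RBhigh cells, and 4.28 and 4.53 in wild-type CD45RBlow cells, against 6.21 and 4.75 in wild-type CD45RBhigh cells.

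Genes of the wider B cell programme that passed between the subsets went in both directions, in a comparison where 3.03% of all tested genes passed. Of 20 B cell surface genes on the array, 13 were tested, 1 passed as higher (Cd24a, a sialoglycoprotein that activated T cells also carry, 0.80, adjusted p = 0.0147) and 0 passed as lower. Of 20 receptor signalling genes, 18 were tested, with Malt1, the NF-kappaB paracaspase, higher (0.96, adjusted p = 0.0106) and Vav3 lower (-0.74, adjusted p = 0.00916). Of 16 B cell transcription factors, 13 were tested, and Ikzf3, which encodes Aiolos, was higher (1.28, adjusted p = 0.0147). Of 11 plasma cell genes, 9 were tested, and Prdm1, which encodes BLIMP-1, was higher (1.67, adjusted p = 0.00586). T cells use Malt1, Vav3, Ikzf3 and Prdm1 too. The median difference of the tested genes was -0.11, -0.18, 0.08 and 0.04 in those 4 lists in turn, against -0.01 over all genes tested. With the replicate block, where 5.61% of genes passed, the surface gene Fcrl1 also passed as higher (1.12, adjusted p = 0.0205). Tcf3 (-0.41, adjusted p = 0.0328), Pou2af1 (-0.45, adjusted p = 0.0374) and Cd83 (-0.58, adjusted p = 0.0408) also passed as lower.

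Markers of other cells moved on some of the same arrays. MHC class II genes, which B cells and dendritic cells express, had summed unlogged levels given here for replicate 1 and then replicate 2. The sums were 869 and 966 in CCR2-/- CD45RBlow cells, against 1603 and 1112 in CCR2-/- CD45RBhigh cells. In wild-type cells they were 702 and 853 in the CD45RBlow subset, against 1305 and 851 in the CD45RBhigh subset, so the replicate 2 pair had almost no gap. Of the 8 tested genes, 0 passed (H2-Oa -1.09, adjusted p = 0.0653). The CD8 chain gene Cd8b1 had 7.38 and 7.30 in CCR2-/- CD45RBlow cells, against 8.78 and 7.76 in CCR2-/- CD45RBhigh cells, and 6.97 and 7.26 in wild-type CD45RBlow cells, against 8.22 and 7.82 in wild-type CD45RBhigh cells. The averaged difference of Cd8b1 was -0.92 (adjusted p = 0.0776). It passed with the replicate block (adjusted p = 0.0467, where 5.61% of genes passed). The partner gene Cd8a stayed between 4.39 and 4.91. Of 7 macrophage markers on the array, 6 were under the filter on all arrays and only Cd68 was tested. Cd68 had 7.41 and 6.88 in CCR2-/- CD45RBlow cells, against 8.55 and 7.68 in CCR2-/- CD45RBhigh cells. It had 7.54 and 7.05 in wild-type CD45RBlow cells, against 7.62 and 7.16 in wild-type CD45RBhigh cells. Its averaged difference of -0.53 missed the threshold (adjusted p = 0.292) and passed with the replicate block (adjusted p = 0.0244). The sum over the 7, in which Cd68 was the brightest, was 219 to 272 in CCR2-/- CD45RBlow and 308 to 483 in CCR2-/- CD45RBhigh cells. It was 235 to 290 in wild-type CD45RBlow and 242 to 300 in wild-type CD45RBhigh cells. Of 7 dendritic cell markers, 4 were under the filter on all arrays, and the sum over the 7 was 328 to 398 in CCR2-/- CD45RBlow, 376 to 457 in CCR2-/- CD45RBhigh, 355 to 377 in wild-type CD45RBlow and 395 to 533 in wild-type CD45RBhigh cells. Ccl22, a chemokine of activated dendritic cells, had log2 levels of 6.11 and 7.40 on the CCR2-/- and wild-type CD45RBhigh arrays of replicate 1, against 4.66 to 5.40 on the other 6 arrays. Zbtb46, a transcription factor of dendritic cells, was instead highest on the CD45RBhigh arrays of replicate 2 (5.23 in CCR2-/- and 5.44 in wild-type cells), with 4.75 and 4.83 on those of replicate 1, and Cd209a lay between 7.64 and 8.16 throughout. The part of other cells, and of the sort itself, in the values of the B cell genes was not tested.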

How the data were processed

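Total RNA (200 ng per sample) was labelled with an Affymetrix whole-transcript kit and hybridised to 8 one-colour arrays, per the labels' protocols. The submitters' processing notes name Partek and RMA, without versions, genome build or options, and the authors deposited log2 values of 41034 transcript clusters, used here unaltered. RMA normalises across arrays, which can hide a shift common to most genes. The deposited values still did not have the same distribution on every array, as array medians ran from 4.92 to 5.05. With no read depth on an array, precision is set by the number of arrays.

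The platform annotation gave 23521 clusters a single symbol, covering 22180 genes. The brightest cluster by mean over all arrays stood for a gene, and the 13508 genes that reached percentile 40 of the array on 2 or more arrays were tested. A model with 4 group means was fitted (limma 3.58.1, R 4.3.3, 4 residual degrees of freedom), with Benjamini-Hochberg adjustment over all tested genes, two-sided, threshold 0.05. A second fit covered all clusters. The gap by replicate number was tested in a model with a mean for each group, the number and its product with subset (2 residual degrees of freedom). Subset effects are CD45RBlow minus CD45RBhigh, genotype effects CCR2-/- minus wild type.

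Replicate numbers were read from the sample titles, where an unnumbered sample was taken as number 1. The deviation of replicate 2 from replicate 1 correlated across genes between all groups (6 correlations, 0.11 to 0.53, limit 0.1), and gaps were therefore taken between arrays of the same number. No label says that arrays of the same number are paired samples. The main fit has no term for the number and so ignores this matching. A fit with the number as a block is given where it changes a call of a member or of a gene on the lists.

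The 8 genes and the gene lists were chosen with earlier results of these data known. The genes named were the 8 members, list members that passed in the averaged subset effect (or the 2 of smallest p), the nearest 8 and 5 genes, and genes that check the labels. Igkv9-120, Tcf3, Pou2af1, Fcrl1, Cd83, Zbtb46, Cd209a, Cd68, Ighg3's place in the ranking and Ccl22 were singled out after their values were seen. On simulated arrays of 13508 genes, the averaged subset effect recovered 95 of 100 genes changed by 1 log2 unit with 16 false calls, and the gap by replicate number recovered 5 of 100 at 1 and 76 of 100 at 2 log2 units. Promoter windows came from RefSeq (GRCm38.p6). No genome was used.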

Additional observations from a re-analysis of the deposited data

Results flagged for a closer look

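The subset gap of 3 clusters had opposite signs in the 2 replicate numbers, higher in CD45RBlow cells in both genotypes in replicate 2 and lower in both in replicate 1. The gap in replicate 2 minus that in replicate 1 was 0.73 for Cd22, 0.51 for the Ighm cluster 17284507 and 0.34 for Blk, in log2 units. The sign pattern itself was not tested. Cd22 passed the filter on low values only through the CD45RBhigh arrays of replicate 1. Blk and cluster 17284507 lay under that filter on all arrays.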

How the results depend on the processing

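Ighm was lower in CD45RBlow cells in the averaged comparison under every alternative tried, and the call was lost with the mean of all 7 clusters (-0.30, adjusted p = 0.307) and without either of 2 arrays. Leaving out 1 array at a time gave -1.16 to -0.90 (adjusted p 0.0109 to 0.0773), with the call lost without the wild-type CD45RBlow array of replicate 1 (-0.97) or the CCR2-/- CD45RBlow array of replicate 1 (-1.06, adjusted p = 0.0568). In CCR2-/- cells the value of -1.13 passed with the replicate block and with an intensity trend in the prior variance (adjusted p = 0.0431). Leave-one-out values in CCR2-/- cells ran from -1.20 to -1.07. The gap of Ighm by replicate number changed sign with the mean of all clusters (0.35) and ran from -0.48 to 0.095 over left-out arrays. The difference of its gap between the genotypes ran from -0.47 to 0.061 and was 0.082 without both CD45RBhigh arrays of replicate 1, a setting chosen after seeing the data.

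The same setting turned the averaged sign of Cd22 (0.22), the Ighm clusters 17284360 (0.38), 17284605 (0.18) and 17284507 (0.048), Pax5 (0.026), Blk (0.012) and Cr2 (0.00097), none of which had passed. Over left-out arrays Cd22 ran from -0.47 to 0.058, cluster 17284360 from -0.29 to 0.16, cluster 17284648 from -0.22 to 0.24 and Cr2 from -0.077 to 0.032.

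Counts of genes called moved more than the members. With the replicate block they were 758 for the averaged subset effect (409 without it), 196 in CCR2-/- cells (45 without) and 104 in wild-type cells (12 without), and the block changed no call of a member other than those given above. With array medians set equal they were 83 in CCR2-/- cells, 24 in wild-type cells and 101 for the gap by replicate number (0 in the fit as designed, 1283 at an unadjusted p under 0.05). With the intensity trend they were 69, 31 and 5 in the same order, and with array weights 7 in CCR2-/- and 116 in wild-type cells. Without both CD45RBhigh arrays of replicate 1 they were 106 in CCR2-/- and 51 in wild-type cells. Leaving out 1 array gave 39 to 524 for the averaged effect, 1 to 84 in CCR2-/- cells, 1 to 54 in wild-type cells and 0 to 79 for the gap by replicate number. The cause of these movements was not tested. Where 1 array is left out, its group has a single array, which is assumed to vary like the others.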
